A study of Mus musculus with 30 samples.

Results

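The comparison set catalytically dead against wild-type SRCAP in mouse embryonic stem cells that still held their own SRCAP. Its libraries were taken by their labels, 4 of the 30 nuclear RNA libraries of the series, 2 from cdSRCAP cells and 2 from wtSRCAP cells, none of which received auxin. Both groups were SYAT cells, a CGR8 derivative in which both Srcap alleles carry a YPet-AID tag and which expresses the OsTir1 receptor, so that indole-3-acetic acid (IAA) can trigger degradation of the tagged protein. Both also carried a doxycycline-inducible SRCAP-mCherry transgene, received doxycycline at 1 µg/mL for 24 h and were kept in auxinole, which blocks basal degradation, in serum and LIF medium. The transgene coded for wild-type SRCAP in the wtSRCAP cells and for SRCAP with a mutated ATPase domain in the cdSRCAP cells. According to the methods of the study, each construct was represented by 1 clone, and cells were sorted for similar mCherry, so the mutation and any difference between the clones cannot be told apart in these libraries.

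SRCAP is the ATPase of a chromatin remodelling complex that exchanges histone H2A for the variant H2A.Z in nucleosomes near promoters and enhancers. A subunit without ATPase activity can still be built into the complex, and the comparison asks how the dead enzyme affects transcripts while the tagged endogenous protein is present. In embryonic stem cells H2A.Z lies at active and at bivalent promoters, the latter belonging mostly to developmental regulators. Nuclear RNA holds both spliced and unspliced transcripts, and the files give a count per gene for exons and another for introns.

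The control libraries held 3514799 to 4895529 intron counts and 12330367 to 24588026 exon counts. The intron total divided by the exon total was 0.235 and 0.166 in the wtSRCAP libraries and 0.331 and 0.199 in the cdSRCAP libraries, so it was higher with cdSRCAP within each replicate number. Its part in the intron results below was not tested. Of the 1069 single-exon genes that reached 20 exon counts in all 8 libraries of the table, 1 had any intron count. Such genes hold no intron, so this does not show whether exon reads entered the introns of other genes. The intron columns missed genes: 1141 of 11018 multi-exon genes that reached the same exon count had an intron count of 0 throughout. A 0 there thus does not show that a gene was silent. Embryonic stem cell markers were expressed in every library, Pou5f1 exons for instance at 686 and 671 CPM (counts scaled to a common library size by TMM) with wtSRCAP and at 761 and 769 with cdSRCAP. Of 15 fibroblast and feeder markers, 7 were tested in exons, none was called, and their summed level was 26.0 to 42.7 CPM with wtSRCAP and 34.1 to 42.6 with cdSRCAP. Of the 22 genes listed for two-cell-like cells, 19 were found in the annotation, and none of these had enough counts to be tested.

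With cdSRCAP, more genes were higher than lower. In exons 117 genes were higher (0.612% of the 19111 tested) and 57 were lower (0.298%), and in introns 128 were higher (1.01% of the 12702 tested) and 8 were lower (0.063%). A gene was called where the adjusted p of edgeR's quasi-likelihood test with the replicate number as a block was under 0.05 and the log2 fold change passed 0.5 in size. The fit took in all 8 wtSRCAP and cdSRCAP libraries, and all p-values below are Benjamini-Hochberg adjusted over all genes tested unless called unadjusted. Without the block, the same edgeR test called 0 exon genes in either direction (730 had an unadjusted p under 0.05) and 12 intron genes higher and 1 lower, so most calls rest on treating libraries of the same number as pairs. The labels do not say what the numbers stand for. Scaled by column totals alone, the split was 80 higher and 20 lower in exons and 83 higher and 17 lower in introns.

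The separation of the libraries is given as a description, since the same 4 libraries chose the genes. Among the 57 exon genes called lower, both cdSRCAP libraries lay below both wtSRCAP libraries for 55, and among the 117 called higher both lay above for 109, while 14.1% and 15.7% of all genes tested were separated in these directions. Leaving out each control library in turn, 4 of the lower and 17 of the higher exon genes stayed called every time, and 14 and 22 were called in none of these fits. In introns 1 of the 8 lower and 10 of the 128 higher genes stayed called every time, and 4 and 79 were called in none. The lower ones that stayed were Gab1, Cldn7, Cldn6 and Tpm4, and the higher ones included Inhbb, Sfrp1, Tbx3, Atp2a3, Sema5b, Nid1, Shisa2, Itga9, Notch4, Mras, Gbx2, Bmp4, Flt4 and Slit2. Without replicate 1 of wtSRCAP, 28 exon genes were called higher and 18 lower, and without replicate 1 of cdSRCAP 77 higher and 10 lower. Without replicate 2 of cdSRCAP, 107 were called higher and 117 lower, so more genes were lower than higher in that fit.

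**Figure D1:**
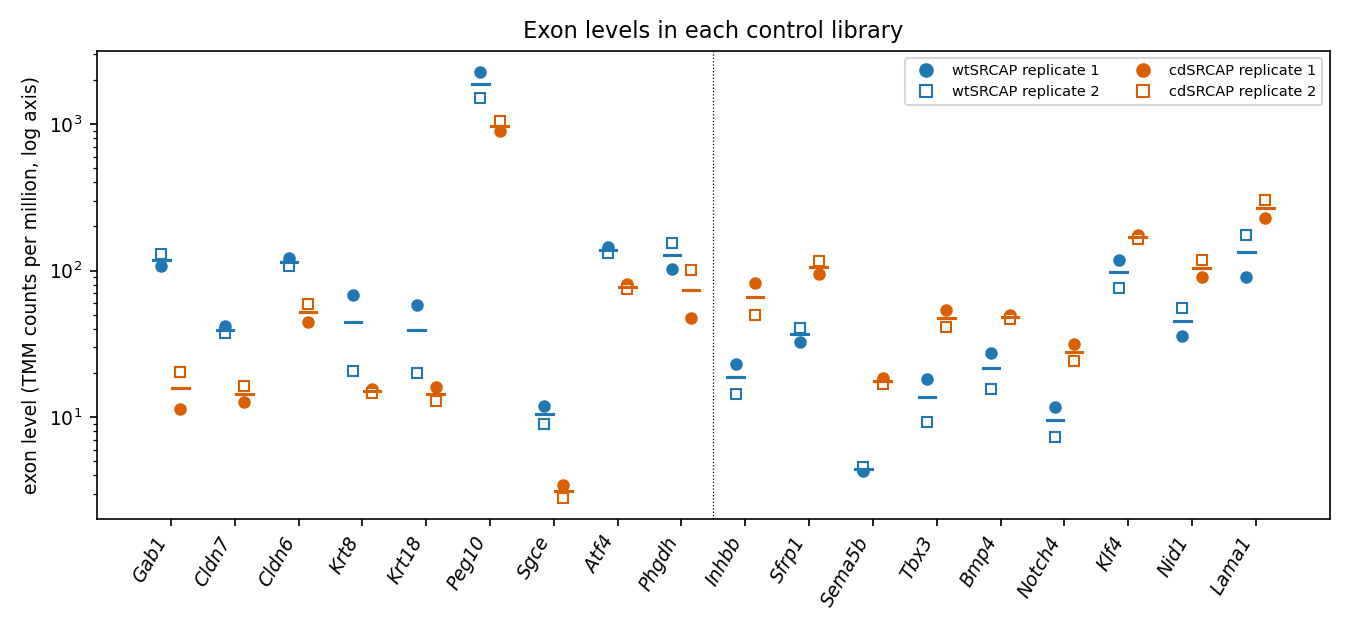
Exon levels of 18 named genes in each control library, in TMM-scaled CPM on a log axis, with filled circles for replicate 1, open squares for replicate 2 and a bar at each group's mean of 2 libraries. The 9 genes left of the dotted line were called lower and the 9 to its right higher, and for each of them both cdSRCAP points lie on 1 side of both wtSRCAP points.

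Srcap itself did not differ detectably. Its exon level was 52.0 and 48.9 CPM with wtSRCAP and 60.2 and 59.2 CPM with cdSRCAP, a log2 fold change of 0.24 (SE 0.15, adjusted p = 0.674 by edgeR). Both cdSRCAP libraries were higher than both wtSRCAP libraries, by less than the test can call. The transgene is a cDNA, so its reads can fall in the exon column and the tagged and introduced forms cannot be told apart there. The intron column, which a cDNA would not fill, held 0 for Srcap in all 8 libraries. Scaled together with libraries of the other count tables, Srcap exons stood at 50.7 to 63.2 CPM in the transgenic control libraries, 40.0 and 45.8 in SYAT control cells without a transgene and 21.8 and 24.3 in the parental CGR8 cells. These tables come from separate experiments, and no test was made across them. No gene of the complex or of H2A.Z exchange passed the test: 0 of 10 SRCAP complex genes and 0 of 14 H2A.Z and exchange genes were called in exons by edgeR, with medians of -0.11 and 0.07 beside -0.02 over all genes and 0 and 2 members at an unadjusted p under 0.05. H2afz, which codes for H2A.Z, had an exon log2 fold change of -0.01.

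Gab1, which codes for a docking protein that links receptor tyrosine kinases to SHP2 and PI3-kinase, had the greatest fall in both columns among the genes called. Its intron level was 450.4 and 377 CPM with wtSRCAP and 61.6 and 85.8 CPM with cdSRCAP, a log2 fold change of -2.48 (SE 0.17, adjusted p = 0.00041 by edgeR). Its exon level was 107 and 130.1 CPM with wtSRCAP and 11.3 and 20.3 CPM with cdSRCAP, a log2 fold change of -2.91 (SE 0.18, adjusted p = 3.52e-10). The groups were far apart in both columns. Gab1 stayed called in introns without the block (adjusted p = 0.00391), and missed the threshold in exons (adjusted p = 0.0612). Gab1 was the 1 called gene of its neighbourhood. Of 11 other protein-coding genes tested in exons within 2 Mb on either side, 0 were called (edgeR, none at an unadjusted p under 0.05), and their log2 fold changes ran from -0.25 to 0.80. Smarca5, the nearest, stood at -0.08 and Usp38 on the other side at 0.00. In introns 0 of 15 neighbours were called, and Hhip, at 1.84, was the 1 with an unadjusted p under 0.05 (adjusted p = 0.0674). On the joint scale, Gab1 exons were at 320 and 396 CPM in SYAT control cells and at 433 and 455 in CGR8 cells, against 113 and 135 with wtSRCAP and 11.9 and 21.4 with cdSRCAP, so both transgenic clones lay below both lines without a transgene, cdSRCAP the farther. No test was made across these tables. Gab1 spans chr8:80764438-80880519 (GRCm38) and overlaps 2 antisense annotations, and the sources used here do not say whether counting used strand.

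Gab1 and 2 of the higher genes are shown by their promoters, from 250 bases before to 50 bases after the start in RefSeq on GRCm38, written 5′ to 3′ on the gene's strand with each CpG in capitals. Inhbb was the higher gene with the lowest p in exons, and Sema5b stayed called in both columns without any 1 library.
Gab1: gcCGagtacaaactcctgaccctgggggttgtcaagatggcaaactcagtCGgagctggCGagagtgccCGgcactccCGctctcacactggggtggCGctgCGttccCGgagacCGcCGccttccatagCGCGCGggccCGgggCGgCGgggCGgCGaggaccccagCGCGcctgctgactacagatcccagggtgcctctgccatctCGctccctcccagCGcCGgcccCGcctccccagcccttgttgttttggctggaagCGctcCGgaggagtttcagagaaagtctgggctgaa
Inhbb: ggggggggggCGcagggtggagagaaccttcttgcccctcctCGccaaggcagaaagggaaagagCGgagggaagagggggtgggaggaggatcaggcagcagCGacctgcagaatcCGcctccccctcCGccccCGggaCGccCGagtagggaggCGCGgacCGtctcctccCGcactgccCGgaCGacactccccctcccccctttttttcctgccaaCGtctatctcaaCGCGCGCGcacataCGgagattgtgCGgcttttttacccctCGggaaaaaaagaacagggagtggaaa
Sema5b: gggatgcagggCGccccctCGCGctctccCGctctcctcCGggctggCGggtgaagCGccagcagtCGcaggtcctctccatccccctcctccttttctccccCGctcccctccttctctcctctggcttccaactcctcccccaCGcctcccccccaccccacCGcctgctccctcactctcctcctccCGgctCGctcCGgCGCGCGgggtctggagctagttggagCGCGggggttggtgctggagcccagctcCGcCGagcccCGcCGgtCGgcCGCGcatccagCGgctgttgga
The windows are chr8:80880470-80880769 on the minus strand for Gab1, chr1:119422199-119422498 on the minus strand for Inhbb and chr16:35541112-35541411 on the plus strand for Sema5b. All of them are CpG-rich, with 26, 23 and 27 CpG dinucleotides against a median of 7 over the 32851 windows of that length in the RefSeq table. The letters TATAAA, searched on both strands, are in none of these windows and in 13.6% of all windows. Promoter content was not compared between called and other genes, since under 80% of them matched the table.

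Several of the genes with lower exon counts code for proteins of epithelial junctions and the cytoskeleton, a grouping made after their values were seen and not tested as a list. Other genes of these classes were called higher, Jam2 and Cobl in both columns (1.09 and 0.89 in exons, 1.38 and 1.28 in introns). Myo1e, Parvb and Tns1 were called higher in introns, at 0.57, 0.81 and 0.82. Cldn7, a claudin of tight junctions, was at 41.6 and 37.3 CPM with wtSRCAP and 12.7 and 16.2 CPM with cdSRCAP, and fell by 1.44 on the log2 scale (SE 0.20, adjusted p = 0.000327 by edgeR). Cldn6, another claudin, was at 123 and 108 CPM and at 44.6 and 59.3 CPM in the same order, and fell by 1.14 (SE 0.16, adjusted p = 0.00035). Levels in the cdSRCAP libraries were below those of wtSRCAP without overlap for both claudins. Cgn, which codes for cingulin, fell by 0.66 and Marveld2, which codes for tricellulin, fell by 1.16, both tight junction components. Patj, a scaffold of the Crumbs polarity complex, fell by 0.83 in exons and 0.91 in introns. Esrp1, a splicing regulator of epithelial isoforms, fell by 0.75 in exons and 0.72 in introns. Of the actin cytoskeleton, Tpm4 fell by 1.01, Tpm1 fell by 0.83 and Flnc fell by 0.78 in exons, and Myh10, nonmuscle myosin IIB, fell by 0.57 in exons and 0.66 in introns. Of these, Cldn7, Cldn6 and Tpm4 stayed called in exons whichever control library was left out. Cgn, Tpm1, Flnc, Patj, Esrp1 and Myh10 lost the exon call without replicate 1 of either clone, Cgn, Esrp1 and Myh10 also without replicate 2 of wtSRCAP, and Marveld2 lost it without any 1 library. The intron calls of Patj and Esrp1 held in 1 of these 4 fits each and that of Myh10 in none.

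The keratins Krt8 and Krt18, which pair in simple epithelia and trophectoderm, rested on fewer libraries. Krt8 exons were at 68.5 and 20.8 CPM with wtSRCAP and at 15.4 and 14.6 CPM with cdSRCAP, and Krt18 exons at 58.3 and 20.1 CPM and at 16.0 and 12.9 CPM. Only replicate 1 of wtSRCAP stood well above the cdSRCAP libraries. Krt8 fell by 1.34 (SE 0.32, adjusted p = 0.040 by edgeR) and Krt18 fell by 1.26 (SE 0.28, adjusted p = 0.0246), and neither was called when replicate 1 of wtSRCAP or of cdSRCAP was left out, with adjusted p-values up to 0.652 for Krt8 and 0.54 for Krt18. They were the only called members among 16 tested trophectoderm genes, whose median was -0.28. Cdx2, which specifies trophectoderm, stood at -0.04.

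Peg10 and Sgce, neighbouring paternally expressed imprinted genes that share a promoter region, were both lower in exons. Peg10, a retrotransposon-derived gene, was at 2264 and 1508 CPM with wtSRCAP and 900.1 and 1048 CPM with cdSRCAP, and fell by 0.93 (SE 0.16, adjusted p = 0.00205 by edgeR). Sgce, which codes for epsilon-sarcoglycan, was at 12 and 8.95 CPM and at 3.46 and 2.83 CPM, and fell by 1.72 (SE 0.33, adjusted p = 0.00743). Its introns fell by 1.27 (adjusted p = 0.0301), while those of Peg10 were at -0.75 (adjusted p = 0.141). Without replicate 1 of cdSRCAP neither gene was called in exons, at -0.68 for Peg10 and -1.60 for Sgce, and without replicate 1 of wtSRCAP Peg10, at -0.65, was not called. The intron call of Sgce was lost in all 4 fits that left out a control library. These 2 genes and Gab1, which is imprinted in the placenta, were the called members among 37 tested imprinted genes, of which 0 were called higher and 11 had an unadjusted p under 0.05. The median of the list was -0.12.

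Atf4 and Phgdh were the genes called lower in the integrated stress response list. Atf4, a transcription factor of amino acid metabolism and of that response, was at 144 and 133 CPM with wtSRCAP and 80.6 and 74.5 CPM with cdSRCAP, and fell by 0.84 (SE 0.15, adjusted p = 0.00408 by edgeR). Phgdh, the first enzyme of serine synthesis, was at 103 and 154 CPM and at 47.7 and 101 CPM, and fell by 0.82 (SE 0.18, adjusted p = 0.0248), with each cdSRCAP library below the wtSRCAP library of its number. These 2 of 24 tested genes were called, both lower, and 23 of the 24 had a log2 fold change below 0, with a median of -0.29. Of the others, Chac1 at -1.06, Slc7a11 at -1.11 and Psat1 at -0.49 had unadjusted p-values under 0.05 and were not called. Atf4 and Phgdh both lost the call without replicate 1 of cdSRCAP or without replicate 2 of wtSRCAP. Of the mitotic genes 0 of 22 were called (edgeR, 9 at an unadjusted p under 0.05), the median was -0.27 and 1 of 22 was above 0, where 47.7% of all genes tested in exons were. Cholesterol and lipid synthesis genes had a median of -0.19 with 0 of 25 called (5 at an unadjusted p under 0.05), and 40 cytosolic ribosomal protein genes a median of 0.06 with 0 called and 0 at an unadjusted p under 0.05.

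**Figure D2:**
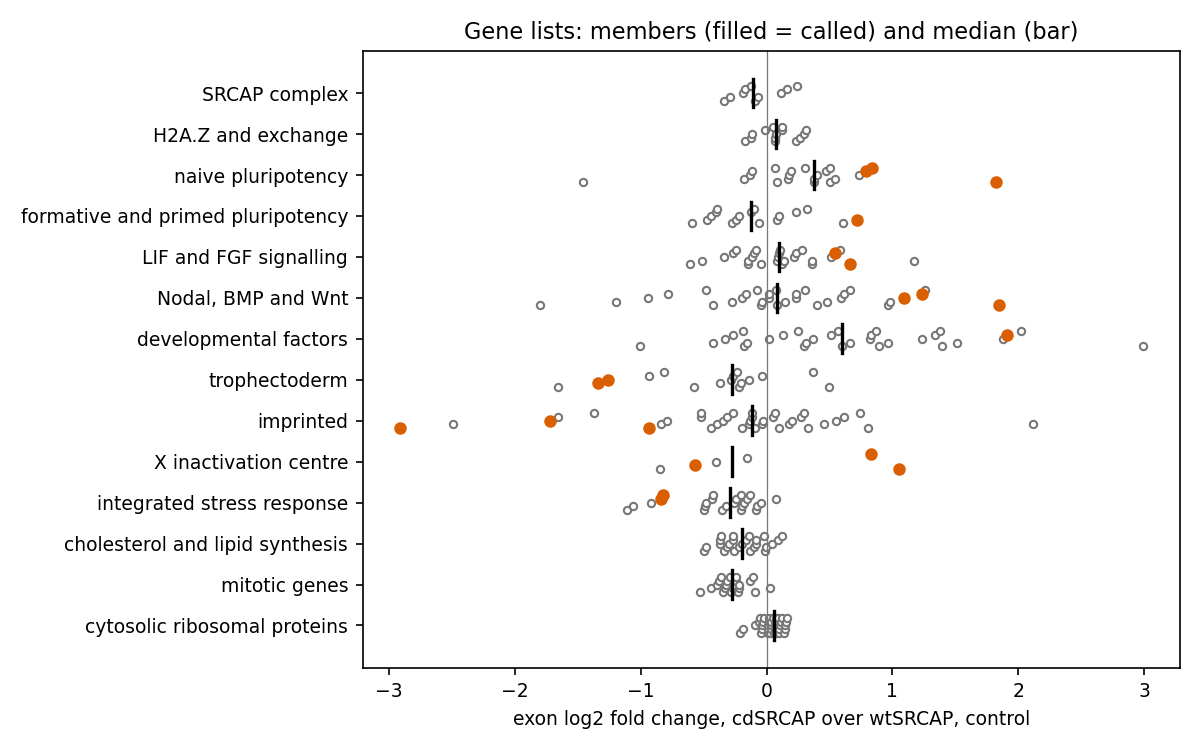
Exon log2 fold changes of cdSRCAP over wtSRCAP in control cells for the tested members of 14 gene lists, with called members filled and the median of each list as a black bar. The 3 called imprinted genes lie below 0 and the 3 called naive pluripotency genes above it. Most members of every list except the X inactivation centre are open.

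The higher genes included secreted signals and their antagonists, a grouping made after the values were seen and not tested as a list. Inhbb, the activin beta-B subunit, was at 22.9 and 14.4 CPM in exons with wtSRCAP and 82.3 and 49.9 CPM with cdSRCAP, a log2 fold change of 1.82 (SE 0.16, adjusted p = 5.23e-07 by edgeR). Sfrp1, a secreted antagonist of Wnt ligands, was at 32.6 and 40.8 CPM and at 95.5 and 117 CPM, a log2 fold change of 1.53 (SE 0.15, adjusted p = 2.24e-06). Both were also called in introns, at 2.88 and 1.61, where the call held in 1 of the 4 fits without a control library, that without replicate 2 of wtSRCAP. Bmp4, a BMP ligand, was at 27.5 and 15.6 CPM and at 49.9 and 47.1 CPM, a log2 fold change of 1.23 (SE 0.19, adjusted p = 0.0012). Bmp4, Notum and Wnt5a were the called members, all higher, among 31 tested Nodal, BMP and Wnt genes, of which 10 had an unadjusted p under 0.05 and the median was 0.08. Notum, a lipase that inactivates Wnts, rose by 1.09, and Wnt5a rose by 1.85 from 1.75 and 2.13 CPM. Fgf4 rose by 0.66 and the FGF feedback inhibitor Spry4 by 0.55 in exons, and the LIF receptor gene Lifr by 0.65 in introns, the called members of 27 and 24 tested LIF and FGF genes. Fgf4, Spry4 and Lifr were called in no fit that left out a control library, Notum was lost without replicate 1 of wtSRCAP, and Wnt5a without replicate 1 of cdSRCAP or 2 of wtSRCAP. Of the Notch receptors, Notch4 rose by 1.59 and Notch1 by 0.63, the latter in no fit without a control library.

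Several genes of axon guidance and of the basement membrane, grouped after their values were seen, were higher in exons, in introns or in both. Others of these classes were called lower in exons, the semaphorin gene Sema4c at -1.25 and the peroxidasin gene Pxdn at -0.97. Sema5b, a semaphorin, was at 32.9 and 60.2 CPM in introns with wtSRCAP and 165 and 183 CPM with cdSRCAP, a log2 fold change of 1.94 (SE 0.17, adjusted p = 0.00091 by edgeR), and at 1.99 in exons (SE 0.24, adjusted p = 4.86e-05). Ntn1, which codes for netrin-1, was at 585 and 558 CPM in introns and rose to 1263 and 1202 CPM, a log2 fold change of 1.11 (SE 0.09, adjusted p = 0.000573), and at 0.83 in exons, where the call was lost without replicate 2 of cdSRCAP or 1 of wtSRCAP. Slit2 rose by 1.01 in introns and 1.13 in exons, the Slit receptor gene Robo1 rose by 0.77 in introns, and the netrin receptor gene Unc5d by 1.17 in introns. Lama1, a laminin chain, rose by 1.04 in exons, a call lost without replicate 1 of wtSRCAP, and 1.29 in introns, and Nid1, which codes for nidogen-1 and links laminin to collagen, rose by 1.21 in exons. Epas1, the hypoxia-inducible factor HIF-2α, had intron levels of 145 and 152 CPM and of 343 and 353 CPM, a log2 fold change of 1.23 (SE 0.10, adjusted p = 0.000573). Vegfc, a lymphangiogenic factor, rose by 1.13 in introns, and Flt4, the gene of its receptor, rose by 1.28 in exons. For Sema5b, Ntn1, Epas1 and Vegfc the groups did not overlap in introns, and each of these 4 stayed called in introns when any 1 control library was left out. Robo1, Unc5d and the introns of Slit2 and Lama1 were called in 1 such fit or in none.

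Naive pluripotency genes leaned upward. In exons 3 of 21 tested were called, Tbx3, Klf4 and Nr0b1, all higher, in introns 2 of 17, Nr5a2 and Zfp42, also higher, and the list medians were 0.37 in exons and 0.53 in introns beside -0.02 and 0.03 over all genes. Tbx3, a T-box factor of the naive state, was at 18.3 and 9.31 CPM with wtSRCAP and 53.5 and 41.1 CPM with cdSRCAP, a log2 fold change of 1.83 (SE 0.19, adjusted p = 6.3e-06 by edgeR). Klf4 was at 119 and 75.7 CPM and at 174 and 165 CPM, a log2 fold change of 0.84 (SE 0.16, adjusted p = 0.00529). Nr5a2, an orphan nuclear receptor, was at 649 and 729 CPM in introns and at 1033 and 1089.6 CPM, a log2 fold change of 0.63 (SE 0.09, adjusted p = 0.00917). Of the core factors, Pou5f1 stood at 0.18, Sox2 at 0.17 and Nanog at 0.54 (adjusted p = 0.124), none of them called. Dppa3, which marks the naive state and the germline, went the other way at -1.46 and was not called (adjusted p = 0.0595). Of 17 tested formative and primed genes, Foxd3 rose by 0.72 and the other 16 were not called, Dnmt3b at -0.59 and Otx2 at -0.44 among them. Klf4 was lost without replicate 2 of either clone, Nr0b1 in every such fit but that without replicate 1 of cdSRCAP, Foxd3 without replicate 1 of wtSRCAP or 2 of cdSRCAP, and Nr5a2 and Zfp42 in all of them. Both list medians kept their sign under both other scalings.

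Chromatin regulators were mostly not called. Of 9 DNA methylation genes, Tet2, a methylcytosine dioxygenase, rose by 0.80 in exons and 0.79 in introns and no other was called; its exon call was lost without replicate 1 of cdSRCAP or 2 of wtSRCAP, and its intron call in all 4 fits that left out a control library. Of 19 TRIM28 and H3K9 methylation genes tested in exons, Zfp57, which keeps methylation at imprinted regions, rose by 0.67, and by 0.97 in introns. Zfp57 was called in neither column once any 1 control library was left out. Polycomb genes, with 31 tested in exons, had 0 calls (edgeR, 1 at an unadjusted p under 0.05) and a median of -0.06. Of the listed developmental factors, 31 passed the count filter in exons, and Pax8, the 1 called, rose by 1.91 from 0.842 and 1.54 CPM. The list median was 0.60, with 24 of 31 above 0 and 8 at an unadjusted p under 0.05 by edgeR. In the IAA libraries of the same clones, fitted alone, the exon median was 0.06. In introns of control cells Ebf1 was the 1 called of 14, at 1.38. The intron median was 0.45 there and 0.80 in the IAA libraries alone. Hox genes were too low for most tests, 6 of 39 passing in exons and 0 of them called (edgeR, 1 at an unadjusted p under 0.05).

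The other lists held few calls in exons. Of 18 mesendoderm genes Bmp4 was called, and of 11 neuroectoderm genes Ncam1, a cell adhesion molecule, rose by 1.48. Zfp423, a zinc finger factor, rose by 0.71 in introns beside Ncam1 at 1.94. Each of these intron calls held in 1 of the 4 fits that left out a control library. Ncam1 lost the exon call without replicate 2 of cdSRCAP, Ebf1 the intron call without replicate 1 of either clone, and Pax8 the exon call without either wtSRCAP library. Ccnd2, which codes for cyclin D2, rose by 1.53 and was the 1 called of 25 replication genes, lost without replicate 1 of wtSRCAP. By edgeR no gene was called among 20 germline genes (1 at an unadjusted p under 0.05), 22 chromatin remodellers (4), 20 p53 targets (4), 20 heat shock and unfolded protein genes (4), 22 interferon and viral sensing genes (2), 8 metallothionein and zinc genes (2), 13 NRF2 and oxidative stress genes (2), 46 BBSome and cilium genes (1), 9 clustered protocadherins (2) and 7 mitochondrially encoded genes (0). The 1 tested Y-linked gene, Eif2s3y, stood at 0.71 (adjusted p = 0.0547). The exon medians of the mesendoderm and neuroectoderm lists were 0.39 and 0.45, beside -0.02 over all genes. Of their members 10 of 18 and 9 of 11 were above 0, where 47.7% of all genes were. The medians of the lists here without a call, the Y-linked gene aside, lay between -0.15 and 0.18. Among their members with the lowest p, Eda2r, a p53 target, stood at 0.69, Bst2, an antiviral membrane protein, at -0.76, Mt1, a metallothionein, at -0.55 and Atrx at -0.41.

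Xist and Tsix, the overlapping noncoding genes of the X inactivation centre, were both higher in exons, at 0.83 (adjusted p = 0.0373 by edgeR) and 1.05 (adjusted p = 0.00529), and Rlim, an activator of Xist, fell by 0.57 (adjusted p = 0.0406). Xist and Tsix lie on opposite strands of 1 locus, so their counts cannot be told apart without knowing whether strand was used. In the whole list of the X inactivation centre, 2 of 6 genes tested in exons were above 0, with a median of -0.28. In introns 0 of 4 tested were above 0, with a median of -0.76. By edgeR 3 of these had an unadjusted p under 0.05 and 0 were called. Rlim was called in none of the 4 fits that left out a control library. Tsix was lost without replicate 1 of either clone, and Xist in every such fit but that without replicate 2 of cdSRCAP. Chromosome medians in exons ran from -0.13 on X to 0.02 on chromosome 5, and in introns from -0.07 on X to 0.10 on chromosome 6. In the IAA libraries of the same clones, fitted alone, the X medians were 0.04 in exons and 0.06 in introns. The medians of the X inactivation centre list were 0.23 and -0.71 there, in the same order. Lars2, Gm15564 and Mir6236, annotations known to collect ribosomal RNA reads in nuclear libraries, were also called higher in exons, at 1.24, 2.75 and 2.33. In the libraries with IAA they stood at -0.19, -0.42 and 0.04.

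Most called genes had the same sign in exons and introns. Of the 273 genes called in 1 or both columns, 37 were called in both, 32 higher and 5 lower, and none in opposite directions. The 5 lower genes were Gab1, Sgce, Esrp1, Patj and Myh10. Of the 128 genes called higher in introns, 127 were tested in exons and 124 of these were above 0, with a median of 0.74. Of the 57 called lower in exons, 45 were tested in introns and all 45 were below 0. The columns come from the same libraries, so these counts speak to the measurement and not to new samples.

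**Figure D3:**
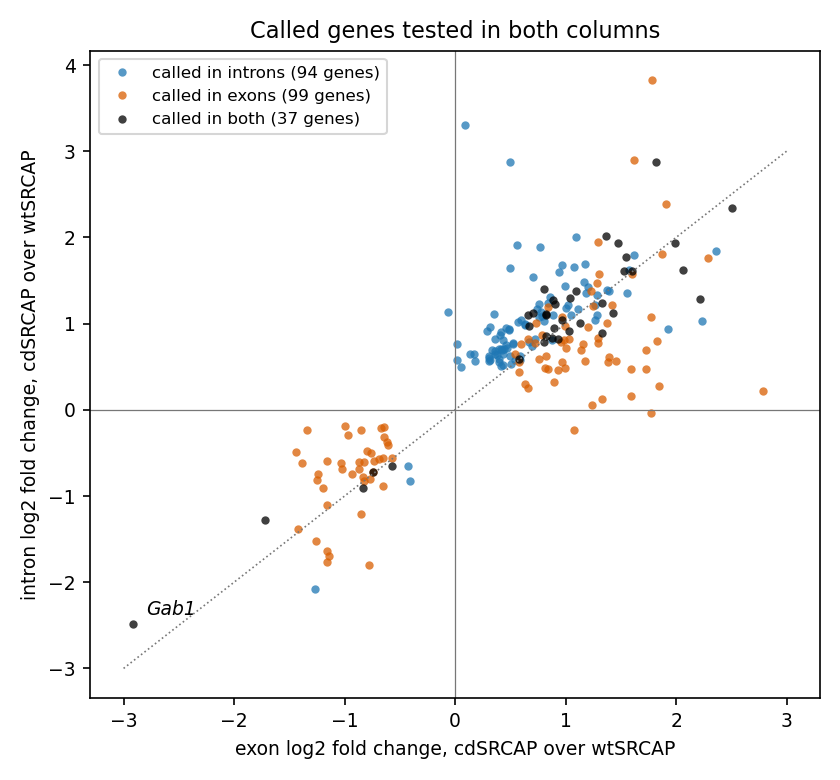
Log2 fold changes of cdSRCAP over wtSRCAP in exons (horizontal) and introns (vertical) for the 230 called genes tested in both columns and without a 0 in the intron counts of a control library, with the diagonal dotted. The 37 genes called in both lie at the upper right and lower left, Gab1 at the lower end.

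The intron calls came mainly from long genes. With the tested genes in 5 equal classes by gene length, the median intron log2 fold change went from -0.09 in the shortest class to 0.16 in the longest, which begins at 93.4 kb, and 95 of the 128 higher calls were in that longest class. In exons the medians stayed between -0.05 and 0.05, and the longest class held 40 of 117 higher calls. The intron total was also the larger share in cdSRCAP libraries, as given above, and the part of either in the intron calls was not tested. Cd81, Rprd1b and Prkaa1 were called higher in introns from a single library, with 187, 169 and 149 counts in replicate 1 of cdSRCAP and 0 in the other 3 control libraries. Fbxw8 had 182 and 69 counts with cdSRCAP and 0 with wtSRCAP. The exon log2 fold changes of these 4 ran from -0.23 to 0.01 and none was called, so 124 higher intron calls stand without them, between 0.50 and 3.31 with a median of 1.04.

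**Figure D4:**
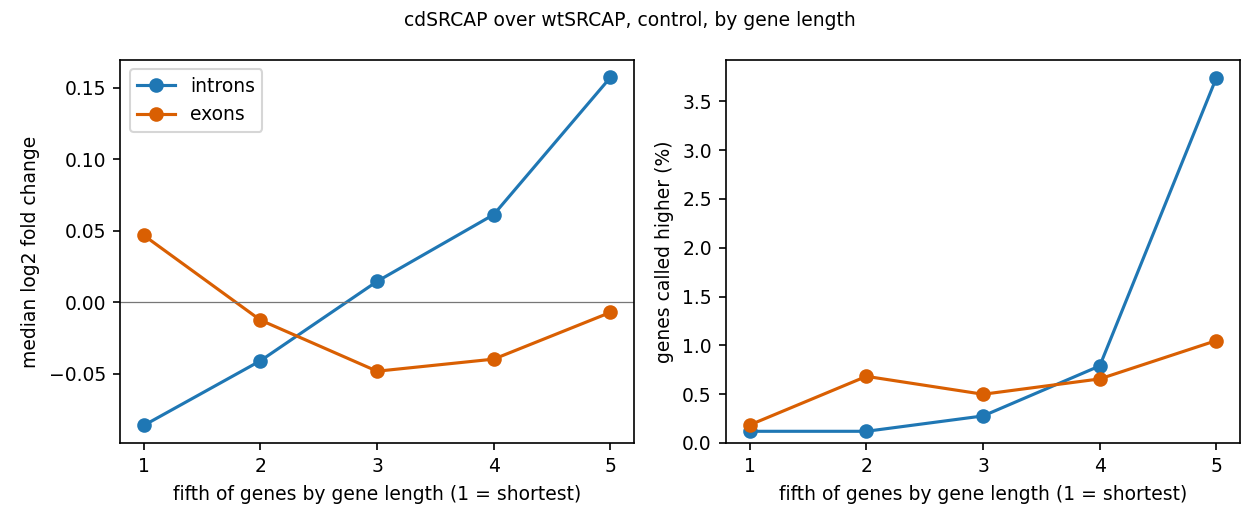
Median log2 fold change of cdSRCAP over wtSRCAP in control cells (left) and percent of genes called higher (right) in 5 equal classes of genes by gene length, for introns and exons. The intron median rises from -0.09 to 0.16 and the intron calls reach 3.74% in the longest class, against 1.05% in exons.

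The direction of most calls was the same after the endogenous protein had been targeted. The wtSRCAP and cdSRCAP cells were also sampled after 500 µM IAA for 4 h, in 4 further libraries of the same clones. Fitted on those 4 alone, so that no control library entered, the log2 fold changes of cdSRCAP over wtSRCAP were below 0 for all 57 exon genes called lower in control cells (median -0.86) and above 0 for 114 of the 117 called higher (median 0.82), where 52.5% of all genes were above 0. In the fit of 8 libraries, 42 of the 57 and 59 of the 117 were also called with IAA, where 1.41% of all exon genes were called in either direction. In introns 6 of 8 lower and 82 of 128 higher genes were called again, against 1.89% of all. The same estimate of spread per gene served both contrasts, so a call in control cells favours a call with IAA. These counts are therefore a description. Gab1 exons were at -3.29 in the IAA libraries alone. The test of whether the difference itself changed with IAA called 0 genes in exons (edgeR, 562 at an unadjusted p under 0.05, 18 of the 174 called genes among them) and 2 in introns. Since the clones are the same, these libraries repeat the clones and not their derivation.

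The called genes were also read in cells without a transgene. When SYAT cells given IAA for 4 h were set against SYAT control cells, from a separate count table, 99 of the 117 exon genes that were higher with cdSRCAP were above 0, with a median of 0.33, where 51.5% of all genes were above 0 and the median was 0.01. Of the 117, Inhbb at 1.64, Bmp4 at 0.94 and Skor1 at 1.5 were called higher there, where 0.396% of all exon genes were called. Of the 57 lower genes 39 were above 0, with a median of 0.12. Gab1 stood at 0.09. In CGR8 cells, which lack the tag, 69 of the 117 were above 0 after the same treatment, with a median of 0.06. Over all genes 50.9% were above 0 there, with a median of 0.01. For the 57 lower genes the count was 22 and the median -0.07. The intron columns of the SYAT table were not used for this, since 692 of its 1302 single-exon genes had intron counts.

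**Figure D5:**
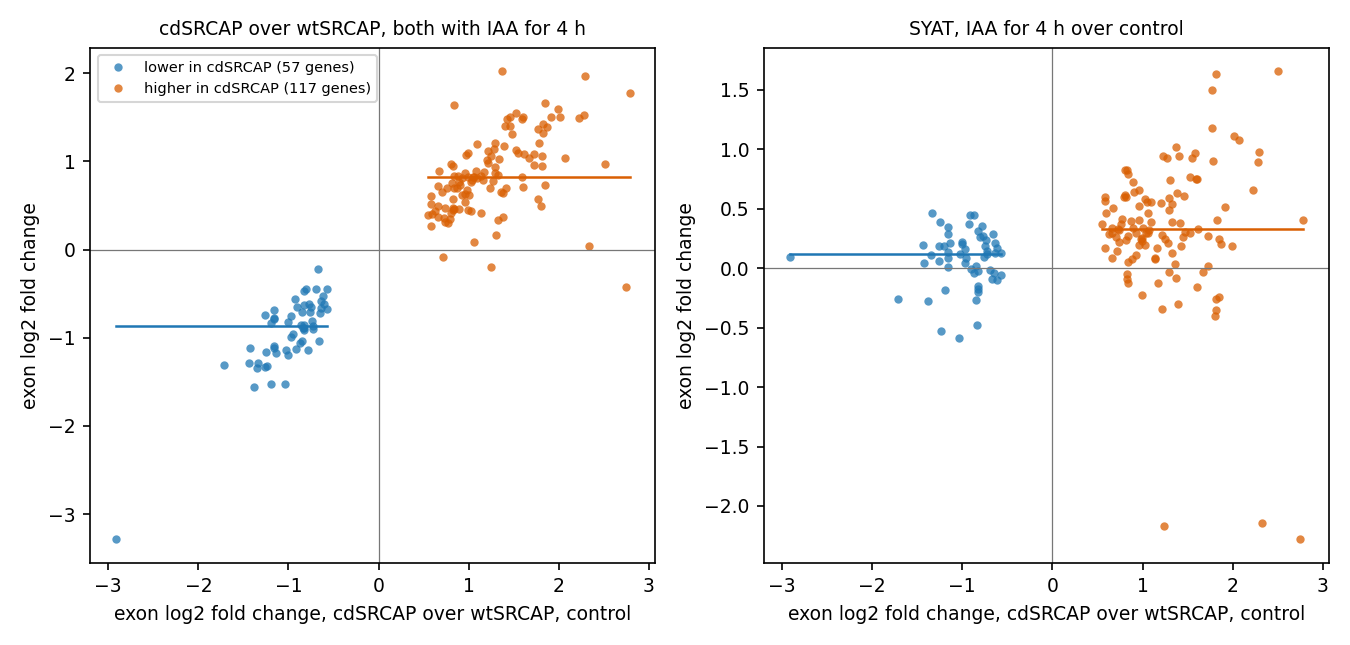
Exon log2 fold changes of the 57 genes called lower and the 117 called higher with cdSRCAP in control cells (horizontal), against cdSRCAP over wtSRCAP in the 4 IAA libraries fitted alone (left) and SYAT cells with IAA for 4 h over control (right), with a line at each median. On the left the medians are -0.86 and 0.82, and on the right 0.12 and 0.33.

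Set on 1 scale with the control libraries of lines without a transgene, the 117 higher genes were nearer to wtSRCAP than to cdSRCAP in SYAT control cells for 96, and the 57 lower genes for 45. Beside CGR8 cells the counts were 48 of 117 and 18 of 57. The median of wtSRCAP over SYAT was 0.29 for the higher genes and 0.09 for the lower ones, and that of cdSRCAP over SYAT was 1.49 and -0.72. Over CGR8 the medians, in the same order, were -0.75 and 0.63 for wtSRCAP and 0.37 and -0.27 for cdSRCAP. The nearer clone thus differed between the reference lines. These tables were made in separate experiments, and no test was run.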

How the data were processed

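Nuclear RNA of mouse embryonic stem cells was sequenced by the authors, aligned to mm10 with STAR and counted with featureCounts over GENCODE exons and over introns (gene bodies minus exons). The whole-number counts deposited by the authors are not normalized. Result tables of the authors' own intron comparisons (fold changes and p-values) were left unused. Each of the 30 libraries has an intron and an exon column, and 0 per-sample columns lacked a sample.

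Groups came from the sample labels. The members, gene lists and tests were chosen with earlier results of these data known. For each column, the 8 wtSRCAP and cdSRCAP libraries (4 groups, 2 replicates each) were fitted with edgeR 4.0.16 in R 4.3.3 (glmQLFit, glmQLFTest) with TMM scaling, a term for the replicate number, and filterByExpr at a minimum count of 10 and a total of 15. Calls needed an adjusted p under 0.05 and a log2 fold change past 0.5. DESeq2 1.42.0, other scalings, no filter, no block, 4 libraries and leave-outs were alternatives. Levels are TMM-scaled CPM and are not divided by gene length, so they are compared within a gene. The deviations of replicates 1 and 2 correlated between groups at 0.076 to 0.296 in introns and 0.259 to 0.376 in exons; with 2 numbers this does not settle the pairing. Replicates are called biological duplicates in the methods, of 1 clone each, so p-values measure the spread between these libraries. The scripts were tested on simulated data.

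A rule set which genes could be named. It took in Srcap, the 12 with the lowest p in each direction and column, and those called in both columns (the 20 with the lowest exon p). Called members of the 34 lists were also taken in, or the 2 with the lowest p where none was called. Not all of these genes are named. Those left out include Arl4c, Prag1, Adgrg1, Prss8 and Acsl5 among the lower exon genes and Mov10 among the higher ones. Crtac1, Igsf21, Abca1 and Soga3 were left out among the higher intron genes. Other genes named were chosen after their values were seen. Gene positions and lengths come from a GENCODE annotation of GRCm38, in which 55141 of 55401 identifiers were found without their version.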

Additional observations from a re-analysis of the deposited data

Results flagged for a closer look

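The difference between cdSRCAP and wtSRCAP changed with IAA for 2 genes in introns by the interaction test of edgeR, Ttc27 and Cd81, both at an adjusted p of 0.0354. Ttc27 had 269 and 260 intron counts with wtSRCAP in control cells, 0 and 0 with wtSRCAP and IAA, 551 and 304 with cdSRCAP in control cells and 268 and 467 with cdSRCAP and IAA. Cd81 had 187 counts in replicate 1 of cdSRCAP in control cells, 79 in replicate 1 of wtSRCAP with IAA and 0 in the other 6 libraries. Both calls thus rest on libraries at 0, in a column where well-covered genes can stand at 0, and neither interaction was called in exons. Groups of 2 libraries are too small for a test of single outlying samples.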

How the results depend on the processing

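The signs of all 136 intron and 174 exon calls held under every alternative in which the gene was tested (3 intron genes were not tested with 4 libraries), which choosing the genes on these libraries favours, while the counts of calls moved. Without the replicate block, paired libraries being ignored, 1 lower and 12 higher were called in introns, 0 and 0 in exons (730 at an unadjusted p under 0.05), 1 and 1 in the introns of the IAA libraries, and 0 interactions in introns. With column totals alone there were 17 lower and 83 higher in introns, 20 lower in exons and 107 higher in the introns of the IAA libraries. With no filter on low counts, 77 lower and 361 higher were called in introns, 119 lower in exons, 145 and 563 in the introns of the IAA libraries, and 84 interactions in introns and 6 in exons. With the 4 control libraries alone, 29 were lower in introns, and 222 lower and 283 higher in exons. DESeq2 on 8 libraries called 35 lower in introns and 100 lower in exons, and with shrinkage on the 4 control libraries 84 higher in introns and 70 higher in exons. Leaving out 1 control library left 1 to 3 lower and 12 to 42 higher in introns, and 10 to 117 lower and 28 to 107 higher in exons, with 13 intron calls in all without replicate 1 of wtSRCAP. Among uncalled genes, the Hoxb9 intron log2 fold change turned to -0.36 and -0.11 without replicate 1 of wtSRCAP and of cdSRCAP (up to 2.89 in the other leave-outs), the Tfap2c intron log2 fold change to 0.0482 without replicate 1 of wtSRCAP (down to -0.55) and the Fgfr2 intron log2 fold change to 0.0612 without replicate 1 of cdSRCAP (down to -0.43). The cause of these shifts was not tested. The IAA libraries fitted alone and the CGR8 values were added after the data were seen. With 2 libraries a group, changes near the threshold depend on any 1 of them.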
